A study of Mus musculus with 14 samples.

Results

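The genes described here are 10 markers and regulators of the passage between epithelial and mesenchymal cell states: the cadherins Cdh1, Cdh2 and Cdh11, the epithelial adhesion molecule Epcam, the intermediate filament gene Vim, and the transcription factors Snai1, Snai2, Twist1, Zeb1 and Zeb2. They were taken by gene symbol, which gave 23 of the 45101 probe sets on the array and 10 of the 18194 genes with a probe set of a single symbol. RNA from mouse embryonic stem cells (ESC), which are pluripotent, and from embryoid bodies (EB), the clumps they form when left to differentiate in culture, had been measured on 14 Affymetrix arrays. The groups were wild-type ESC (WT ESC, n = 3) and EB (WT EB, n = 3) of the lines B21, J1 and R1, TKO ESC (n = 3) of the lines 7-4-1, Dutch and Ta1-12, and TKO EB (n = 5) of the same lines with 2-55-2 and 14-14-4. The labels do not spell out TKO, and it is taken here, from the title of the series, to mean loss of the 3 retinoblastoma family genes Rb1, Rbl1 and Rbl2. Each line is 1 cell line grown in culture, and the sources used here name no other agent and no time of EB culture.

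Epithelial cells are held together by E-cadherin, the product of Cdh1, whose cytoplasmic tail is bound by catenins. In the epithelial-mesenchymal transition, a programme used in gastrulation and neural crest formation, cells lose E-cadherin and take up other cadherins such as N-cadherin (Cdh2), a change known as the cadherin switch. Zinc-finger factors of the Snail and ZEB families repress Cdh1 and other epithelial genes by binding E-box sequences, and the basic helix-loop-helix factor Twist1 acts in the same programme. Undifferentiated mouse ESC are themselves an epithelial cell type with high Cdh1 and Epcam.

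Because these repressors read E-boxes, the upstream sequence of 3 of the genes is shown, taken from RefSeq promoter windows of build GRCm38.p6. The motif searched was CACCTG on both strands, which is the same as CACCTG or CAGGTG read on 1 strand. Of 32851 promoter windows of 250 bases before a gene start, 17.2% held it at least once and 2.06% at least 2 times. The Epcam window (chr17:87635729-87635978, plus strand) held 2 matches, beginning 187 and 19 bases before the start, the Snai1 window (chr2:167537945-167538194, plus strand) held 1, beginning 126 bases before it, and the Vim window (chr2:13574061-13574310, plus strand) held 0. Capitals mark the matches, and each sequence runs 5′ to 3′ up to the base before the start. A match is a description of the letters and not a measured binding site.
Epcam: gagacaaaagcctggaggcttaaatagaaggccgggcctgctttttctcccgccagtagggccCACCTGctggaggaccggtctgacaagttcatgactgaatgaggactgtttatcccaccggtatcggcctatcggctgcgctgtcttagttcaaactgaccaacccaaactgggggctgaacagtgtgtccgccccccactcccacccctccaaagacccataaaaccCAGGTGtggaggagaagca
Snai1: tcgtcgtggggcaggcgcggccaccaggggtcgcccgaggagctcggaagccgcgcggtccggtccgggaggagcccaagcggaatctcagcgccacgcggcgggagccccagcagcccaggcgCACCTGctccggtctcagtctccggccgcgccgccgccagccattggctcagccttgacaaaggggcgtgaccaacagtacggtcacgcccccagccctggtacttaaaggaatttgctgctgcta
Vim: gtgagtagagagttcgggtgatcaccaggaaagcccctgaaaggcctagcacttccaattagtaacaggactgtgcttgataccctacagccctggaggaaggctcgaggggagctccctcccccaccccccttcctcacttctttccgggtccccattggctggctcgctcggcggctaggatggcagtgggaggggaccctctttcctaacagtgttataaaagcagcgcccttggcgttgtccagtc
Windows of 5 of the 10 genes were used, and the upstream sequence of the other genes is not described here. Any window of the 10 genes on 1 chromosome was left out by rule, and the 32851 windows were not filtered in this way. The windows of Twist1 and Zeb2 held 0 matches.

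On differentiation of WT cells, 8 of the 10 genes rose and none fell, in a comparison that called 43.9% of all genes tested (26.5% higher, 17.4% lower). The 8 were Cdh2, Cdh11, Vim and all 5 transcription factors, while Cdh1 and Epcam stayed high on the EB arrays and did not pass the test. TKO cells gave the same count, 8 higher and 0 lower, with the same 8 genes. There, 36% of all 14360 genes tested were called, 21% higher and 15% lower. The same 8 genes had no overlap between ESC and EB arrays in either genotype and 0 were lower without overlap, where 35.6% of all genes were higher and 25.3% lower without overlap in WT, and 22.3% and 14.6% in TKO. A gene was called at an adjusted p under 0.05 in limma, on log2 intensities with a floor of 32. The median change of the 10 genes was 2.94 on the log2 scale in WT and 2.91 in TKO, against 0.13 and 0.09 over all genes tested. With the line as a random block on all 14 arrays, 5267 genes in place of 5166 were called in TKO. With the line as a block on only the 12 arrays of lines with both stages, 3216 were called. Under both, 8 of the 10 were again higher. Without line Ta1-12 the count in TKO was 7, and without TKO EB of Dutch and 14-14-4 it was 8. Under quantile normalization all calls in WT split into 3071 higher and 3485 lower, in place of 3801 and 2500. In bulk RNA, a larger share of cells of a type and more RNA per cell cannot be told apart.

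**Figure D1:**
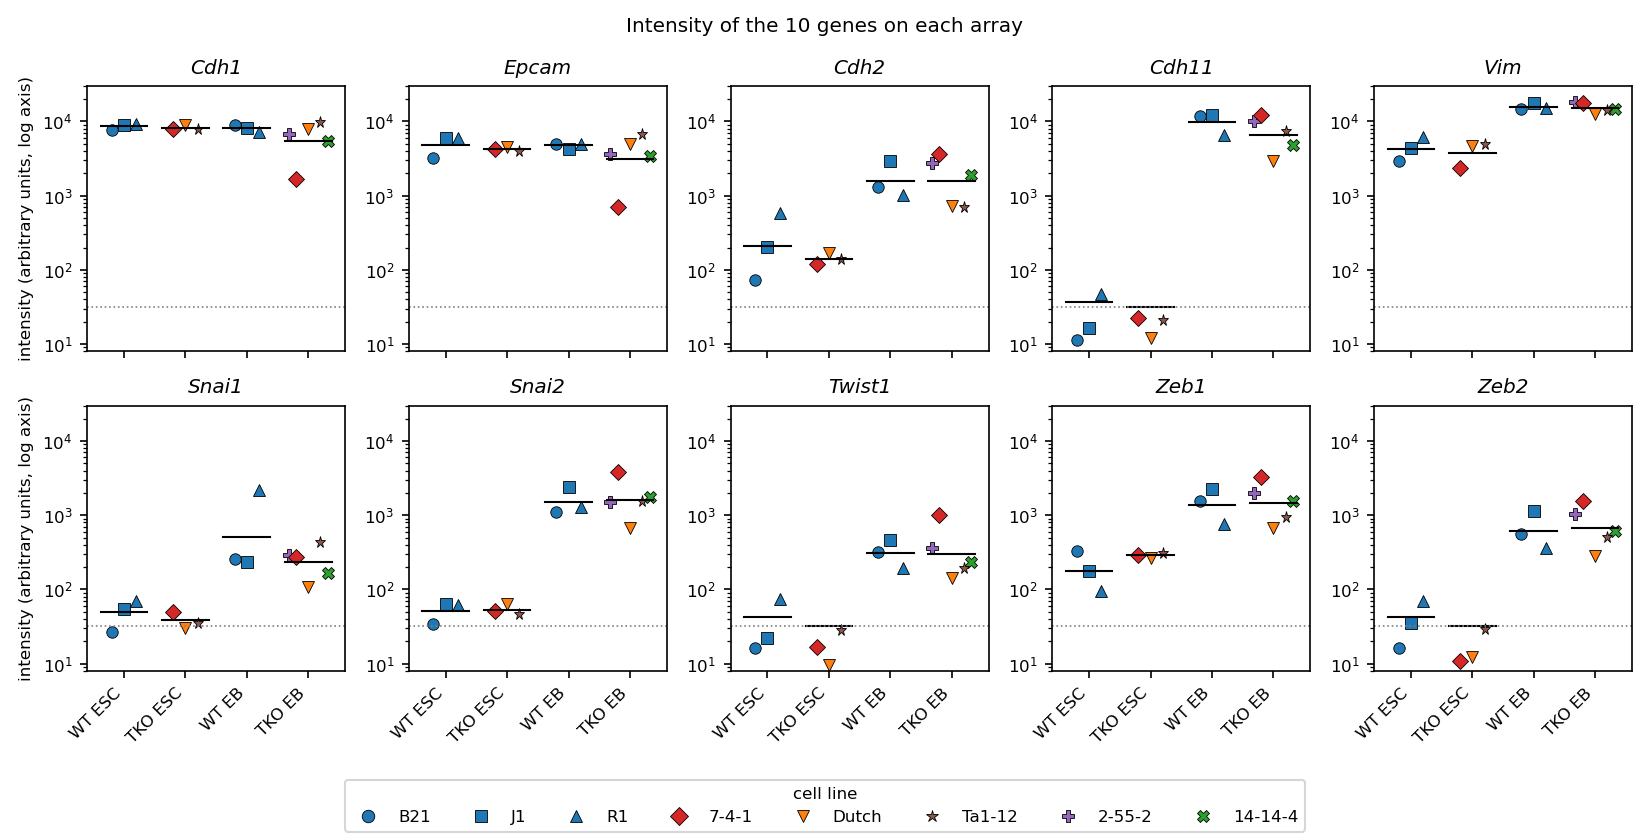
Intensity of the 10 genes (log axis, arbitrary units) on each of the 14 arrays, grouped by genotype and stage, with 1 symbol per cell line, a bar at the group mean of log2 values and a dotted line at the floor of 32. For Cdh1 and Epcam, the ranges of ESC and EB arrays overlap in each genotype. All TKO EB arrays but Dutch and Ta1-12 lie below every TKO ESC array for these genes, with TKO EB 7-4-1 lowest (1655 and 712). WT EB R1 lies below every WT ESC array for Cdh1. The other 8 genes are higher on every EB array than on every ESC array of the same genotype.

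The 14 arrays had median intensities between 83.2 and 107.9. The stage labels were checked with Pou5f1, a core factor of pluripotent cells, which lay between 9880 and 12950 on the 6 ESC arrays and between 32.8 and 55.2 in WT EB. In TKO EB it was 17.1 in Ta1-12 and 147 in 7-4-1, but 1542 in 2-55-2, 6133 in 14-14-4 and 7410 in Dutch, so TKO EB of the latter 3 lines kept this ESC marker. Of the targeted genes, Rb1 (116 to 913 in TKO, 138 to 1018 in WT) and Rbl2 (297 to 1099 and 411 to 1727) overlapped between genotypes, and whether their probe sets lie within the deleted parts is not known here. Rbl1 was 15.9 to 38.3 in the TKO arrays of 7-4-1, 2-55-2 and 14-14-4 and 250 and 377 in ESC and EB of Dutch, while the arrays labelled TKO Ta1-12 had 493 in ESC and 1096 in EB, against 356 to 1090 in WT. Directions drawn from the TKO group include the arrays labelled TKO Ta1-12. Markers of fibroblasts, which can enter ESC cultures as feeder cells, had a summed intensity of 498 to 956 over 8 genes in ESC of both genotypes and of 27301 to 111564 in EB.

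Cdh1 encodes E-cadherin. In the order of lines B21, J1 and R1, its intensity was 7771, 8858 and 9091 in WT ESC and 9062, 8106 and 7195 in WT EB. In TKO ESC it was 7844, 8862 and 7944 (7-4-1, Dutch and Ta1-12). TKO EB had 1655, 7851 and 9928 in these lines, 6863 in 2-55-2 and 5522 in 14-14-4. The groups overlapped, and TKO EB 7-4-1 was the lowest array by far. The log2 change was -0.08 ± 0.47 (SE, n = 3 and 3, limma adjusted p = 0.901) in WT, with a 95% interval from -1.1 to 0.94. In TKO it was -0.59 ± 0.42 (n = 5 and 3, limma adjusted p = 0.297), with an interval from -1.5 to 0.33, and without TKO EB 7-4-1 it was -0.15. Both intervals include a fall of 1 on the log2 scale.

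Epcam encodes an adhesion molecule of epithelial cells that is also abundant in pluripotent cells. WT ESC had 3167, 6056 and 6024 and WT EB 4972, 4315 and 5004 (B21, J1 and R1). In TKO ESC the values were 4219, 4539 and 3980. TKO EB had 712 in 7-4-1, 4920 in Dutch, 6805 in Ta1-12, 3586 in 2-55-2 and 3368 in 14-14-4. As for Cdh1, stages overlapped and 7-4-1 was lowest. The log2 change was -0.04 ± 0.61 (limma adjusted p = 0.969) in WT and -0.45 ± 0.54 (limma adjusted p = 0.539) in TKO, the latter 0.08 without TKO EB 7-4-1. A second, dimmer Epcam probe set ran from 224 to 395 over all arrays and was not called either (0.31 ± 0.22 in WT, 0.28 ± 0.20 in TKO). In line 7-4-1 itself, ESC exceeded EB 4.74-fold for Cdh1 and, on the brighter probe set, 5.92-fold for Epcam. The dimmer Epcam probe set did not show this, with 224 in ESC and 273 in EB of that line.

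Cdh2 encodes N-cadherin, the cadherin of neural and mesodermal cells. WT ESC had 74.1, 205 and 589 and WT EB 1298, 2904 and 1032 (B21, J1 and R1). TKO ESC had 121, 167 and 140 (7-4-1, Dutch and Ta1-12). TKO EB had 3608, 718 and 695 in these lines, 2714 in 2-55-2 and 1903 in 14-14-4. Every EB array was above every ESC array. Cdh2 rose by 2.92 ± 0.76 in WT (7.57-fold, limma adjusted p = 0.00845) and by 3.46 ± 0.68 in TKO (11-fold, adjusted p = 0.00219). WT ESC R1 and B21 moved the WT value most: it was 3.67 without R1 and 2.18 without B21, and it passed in both cases. A second Cdh2 probe set rose by 3.30 ± 0.73 and 3.73 ± 0.65.

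Cdh11, a cadherin of mesenchyme and of osteoblasts, had the largest change of the 10 genes in both genotypes. It was at 11.2, 16.4 and 47.5 in WT ESC and at 11781, 12371 and 6652 in WT EB. TKO ESC had 22.3, 12.2 and 21.3. TKO EB had 12230 in 7-4-1, 10028 in 2-55-2, 7435 in Ta1-12, 4769 in 14-14-4 and 2916 in Dutch. All ESC values but that of WT ESC R1 were under the floor, so the fold change depends on the floor (8.74 in WT and 8.39 in TKO on the log2 scale with a floor of 16 for Cdh11, and 7.27 and 6.69 with a floor of 64). It rose by 8.08 ± 0.45 in WT (limma adjusted p = 6.42e-07) and 7.69 ± 0.40 in TKO (adjusted p = 2.39e-07). The second Cdh11 probe set rose as well, by 5.27 ± 0.72 and 4.39 ± 0.65.

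Vim encodes vimentin, the main intermediate filament of mesenchymal cells, and was already well expressed in ESC. Intensity was 2901, 4432 and 6160 in WT ESC and 14514, 17586 and 15105 in WT EB. TKO ESC had 2349, 4684 and 4897. TKO EB lay between 12481 in Dutch and 18268 in 2-55-2, with 17759, 14495 and 14417 in 7-4-1, 14-14-4 and Ta1-12. ESC and EB did not overlap, and the 8 EB arrays differed among themselves by less than for any other of the 8 genes that rose. Vim rose by 1.87 ± 0.29 in WT (3.65-fold, limma adjusted p = 5.89e-04) and by 2.02 ± 0.26 in TKO (4.06-fold, adjusted p = 1.83e-04). The other 2 probe sets of Vim rose by 2.25 ± 0.32 and 2.38 ± 0.33 in WT and by 2.49 ± 0.29 and 2.66 ± 0.30 in TKO.

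**Figure D2:**
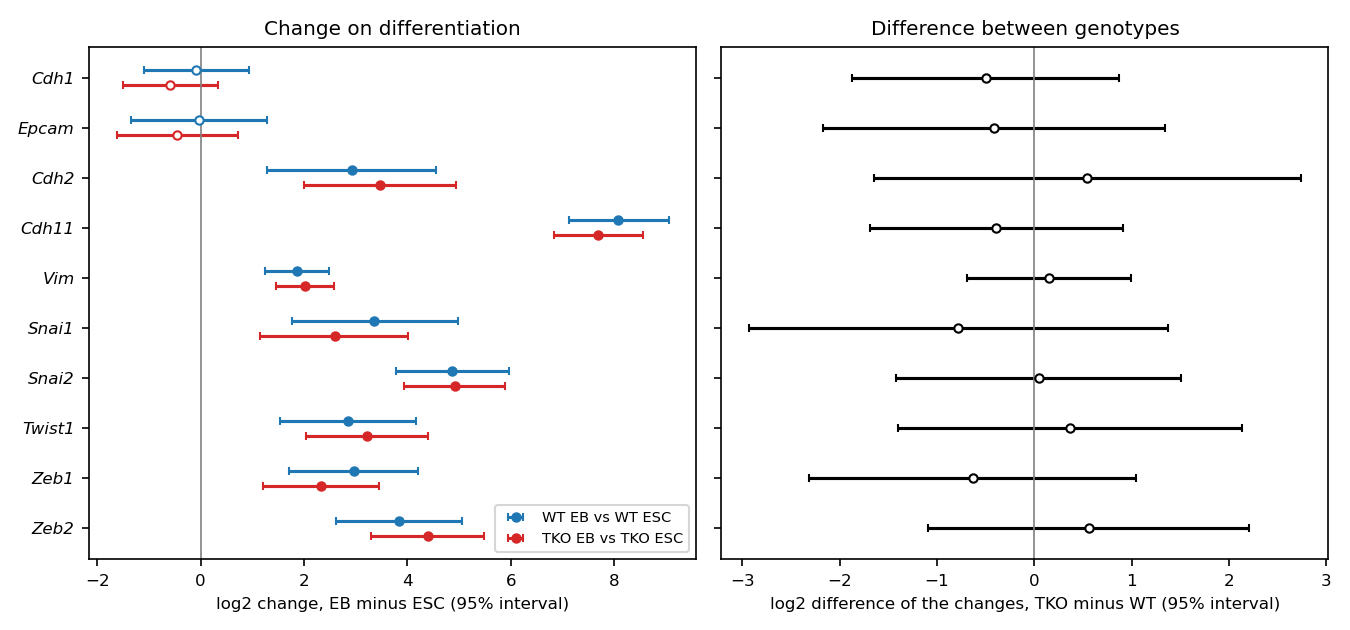
Log2 change from ESC to EB in WT and TKO cells (left) and the difference between these changes (right), each with its 95% interval from limma; filled symbols passed an adjusted p of 0.05. The 8 genes that rose reach from 1.87 (Vim) to 8.08 (Cdh11) in WT, and all 10 intervals of the difference include 0.

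Among the Snail family, Snai1 encodes the founding member, which represses Cdh1 in gastrulation. It was at 27.1, 54.2 and 69.7 in WT ESC and at 253, 236 and 2206 in WT EB (B21, J1 and R1). TKO ESC had 49.8, 29.9 and 35.6. TKO EB had 276 in 7-4-1, 108 in Dutch, 440 in Ta1-12, 295 in 2-55-2 and 169 in 14-14-4. Stages did not overlap, and WT EB R1 exceeded WT EB B21 by 8.73-fold. Snai1 rose by 3.36 ± 0.74 in WT (limma adjusted p = 0.00363), and by 2.30 without WT EB R1. In TKO it rose by 2.59 ± 0.66 (adjusted p = 0.00955). With a floor of 64 the TKO change of Snai1 was 1.85. With the floor of 32 but without the arrays of line Ta1-12 it was 2.30 ± 0.81 and no longer passed (adjusted p = 0.0638).

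Snai2, the relative of Snai1 that marks migrating neural crest and mesenchyme, rose by 4.39 to 5.23 in the 3 WT lines and by 3.41 to 6.25 in the 3 TKO lines. It was at 34.4, 63.2 and 62 in WT ESC and at 1095, 2369 and 1296 in WT EB. TKO ESC had 50.7, 63.7 and 46.4. TKO EB had 3865 in 7-4-1, 1740 in 14-14-4, 1556 in Ta1-12, 1504 in 2-55-2 and 676 in Dutch. The lowest EB array was thus more than 10 times the highest ESC array. Snai2 rose by 4.87 ± 0.50 in WT (29.2-fold, limma adjusted p = 7.89e-05) and by 4.92 ± 0.45 in TKO (30.2-fold, adjusted p = 2.51e-05), and its second probe set by 4.03 ± 0.50 and 4.13 ± 0.45.

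Twist1, a helix-loop-helix factor of mesoderm and cranial mesenchyme, had 16.2, 22.4 and 74.9 in WT ESC and 316, 463 and 196 in WT EB. TKO ESC had 16.6, 9.67 and 28.5, all under the floor. TKO EB had 1012 in 7-4-1, 364 in 2-55-2, 237 in 14-14-4, 192 in Ta1-12 and 141 in Dutch. Line 7-4-1 was again highest and Dutch lowest. Twist1 rose by 2.85 ± 0.61 in WT (limma adjusted p = 0.00309) and by 3.22 ± 0.54 in TKO (adjusted p = 9.38e-04). The size of the change in Twist1 also depends on the floor: in TKO it was 3.93 with a floor of 16 and 2.22 with a floor of 64, and in WT 2.18 with a floor of 64.

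Zeb1 and Zeb2 encode the paired zinc-finger repressors of Cdh1. Zeb1 was at 329, 177 and 95.4 in WT ESC, 1533, 2254 and 751 in WT EB, and 289, 268 and 307 in TKO ESC. In TKO EB it was 3225 in 7-4-1, 2001 in 2-55-2, 1535 in 14-14-4, 956 in Ta1-12 and 669 in Dutch. Unlike for Twist1 and Zeb2, the Zeb1 probe set lay above the floor on every ESC array. It rose by 2.96 ± 0.58 in WT (limma adjusted p = 0.00197) and by 2.33 ± 0.52 in TKO (adjusted p = 0.00442).

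Zeb2 was at 16, 35.8 and 69.3 in WT ESC, 566, 1144 and 356 in WT EB, and 10.7, 12.3 and 29.7 in TKO ESC. In TKO EB it was 1533 in 7-4-1, 1047 in 2-55-2, 605 in 14-14-4, 503 in Ta1-12 and 282 in Dutch, the same order of lines as for Zeb1. Zeb2 rose by 3.83 ± 0.57 in WT (14.3-fold, limma adjusted p = 4.70e-04) and by 4.39 ± 0.51 in TKO (21-fold, adjusted p = 1.00e-04). The 3 TKO ESC values of Zeb2 lay under the floor, so the size depends on it: the TKO change was 5.10 with a floor of 16 and 3.39 with a floor of 64, and the WT change 3.22 with a floor of 64.

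The probe sets of the ZEB genes did not all move. Over all 31122 probe sets that passed the filter on dim signal, 22.7% were called higher and 17.6% lower in WT EB against WT ESC, and 17 of the 22 tested among the 23 were called higher and 0 lower. In TKO, 18.1% were called higher and 16.9% lower, and of the 22, 16 higher and 0 lower. One Zeb2 probe set stayed between 155 and 304 on all arrays and changed by -0.31 ± 0.22 in WT (limma adjusted p = 0.287) and 0.15 ± 0.20 in TKO (adjusted p = 0.585). A dim Zeb2 probe set, at 3.88 to 239, passed in WT (1.71 ± 0.57, limma adjusted p = 0.0291) but not in TKO (1.09 ± 0.51, adjusted p = 0.113). A Zeb1 probe set of low signal, at 19.1 to 185, changed by 1.23 ± 0.56 (adjusted p = 0.0941) and 0.88 ± 0.50 (adjusted p = 0.189), and another, at 5.76 to 63.6, did not pass the filter and was not tested. With the mean of all probe sets in place of the brightest, the WT change was 1.41 for Zeb1 and 2.30 for Zeb2, and in TKO it was 1.16 and 2.36. The files do not say which transcripts these probe sets read.

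Genotypes were then compared. No gene of the 10 was called in TKO ESC against WT ESC, in TKO EB against WT EB or in the difference between the changes on differentiation, nor did any have an unadjusted p under 0.05 (0 of 10 in each). Over all genes, limma called 0 in each of these comparisons (0%), with 394, 2027 and 519 of 14360 genes at an unadjusted p under 0.05. The intervals are wide: the change in TKO minus that in WT was -0.50 (95% interval -1.87 to 0.87) for Cdh1, -0.41 (-2.17 to 1.34) for Epcam and 0.54 (-1.65 to 2.74) for Cdh2. It was narrowest for Vim, at 0.15 (-0.69 to 0.99), and was -0.39 (-1.69 to 0.91) for Cdh11. Among the factors it ran from -0.78 (-2.93 to 1.37) for Snai1 to 0.56 (-1.09 to 2.21) for Zeb2. For each gene but Vim, the interval includes a difference of 1 on the log2 scale in at least 1 direction.

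In ESC, the largest genotype differences were 0.70 ± 0.58 for Zeb1 and -0.55 ± 0.76 for Cdh2, and in EB -1.14 ± 0.66 for Snai1 (limma adjusted p = 0.429) and -0.61 ± 0.54 for Epcam (adjusted p = 0.597). These values move with single arrays, in both directions. Without WT EB R1 Snai1 had -0.08, without TKO EB 7-4-1 Epcam had -0.08, and without WT ESC R1 Cdh2 had 0.20 and Zeb1 0.25. With another array left out, the differences reached -1.70 for Snai1, -0.90 for Epcam, -1.30 for Cdh2 and 1.15 for Zeb1. The arrays of the genotypes overlapped for all 10 genes at both stages, while over all genes 4.78% were higher and 7.35% lower without overlap in ESC, and 0.877% and 3.04% in EB. When the array TKO EB Ta1-12 was left out, 1431 genes were called between TKO EB and WT EB and 26 in the difference of changes, and the 10 genes were not among them.

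Lines differed within the EB groups, and the 8 genes that rose on differentiation tended to be ordered alike. Among the 5 TKO EB arrays, 7-4-1 was highest for 6 of the 8 genes, where it was highest for 24.8% of all genes tested, and Dutch was lowest for 7 of 8, where it was lowest for 26.7% of all genes. Ta1-12 was lowest for Cdh2 and 2-55-2 highest for Vim. Snai1 was highest in Ta1-12. Dutch was also the line with the highest Pou5f1 of these arrays and the lowest sum of fibroblast markers (27301, against 56127 to 111564 in the other 4). Line 7-4-1 had the highest sums of fibroblast markers (111564) and of neural progenitor markers (16746 over 6 genes, against 1265 to 6602). It was highest for 6 of 8 fibroblast and 5 of 6 neural progenitor markers, against 24.8% of all genes. The part of these cell types in the levels of the 8 genes was not tested.

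From ESC to EB of the same line, 7-4-1 went up by 4.89 on the log2 scale in Cdh2, 4.98 in Twist1, 3.48 in Zeb1, 5.58 in Zeb2 and 6.25 in Snai2, and down by 2.25 in Cdh1 and 2.57 in Epcam. Line Dutch went up by 2.11, 2.14, 1.32, 3.14 and 3.41 in the same 5 genes, with Cdh1 at -0.17 and Epcam at 0.12. In the other 4 lines measured at both stages, Cdh1 changed by -0.34 to 0.32 and Epcam by -0.49 to 0.77. Cdh1 and Epcam, on its brighter probe set, were both lower in EB, beside higher Cdh2, in 3 of 6 lines: 7-4-1, J1 (-0.13 and -0.49) and R1 (-0.34 and -0.27). The dimmer Epcam probe set was higher in EB in 7-4-1 (224 in ESC, 273 in EB) and J1 (253 and 324), and lower in R1 (365 and 327). Each line is a single pair of arrays with no replicate.

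Whether other epithelial genes followed Cdh1 and Epcam was read from a list of 23 genes of tight junctions, desmosomes and epithelial regulation, of which 22 were tested. In TKO EB 7-4-1, 21 of the 22 were lower than on each of the other 7 EB arrays, where this array was lowest for 14.8% of all genes tested. The median of the list on this array was 2.14 below the median of the 8 EB arrays on the log2 scale, and that of all genes was 0. The tight junction gene Cldn4 had 229 there and 1413 to 3670 on the other EB arrays. For Esrp1, a splicing factor of epithelial cells, the values were 228 and 531 to 3597, and for the transcription factor Grhl2 86.2 and 200 to 801. The exception was Ovol2, a repressor of mesenchymal genes, which was highest there (223, against 157 to 203). In ESC, 7-4-1 was lowest of 6 arrays for 8 of the 22 genes (36.4%, against 20.3% of all genes). Markers of stratified epithelium summed to 605 in TKO EB 7-4-1, the lowest of the EB arrays, and to 13711 to 18938 in WT EB, and visceral endoderm markers to 12504, also the lowest. Marker by marker this array was the lowest of the 8 for only 2 of 6 and 1 of 8, while Dutch was lowest for 4 of 6 stratified epithelium markers. The part of these cell types in the low epithelial genes was not tested.

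**Figure D3:**
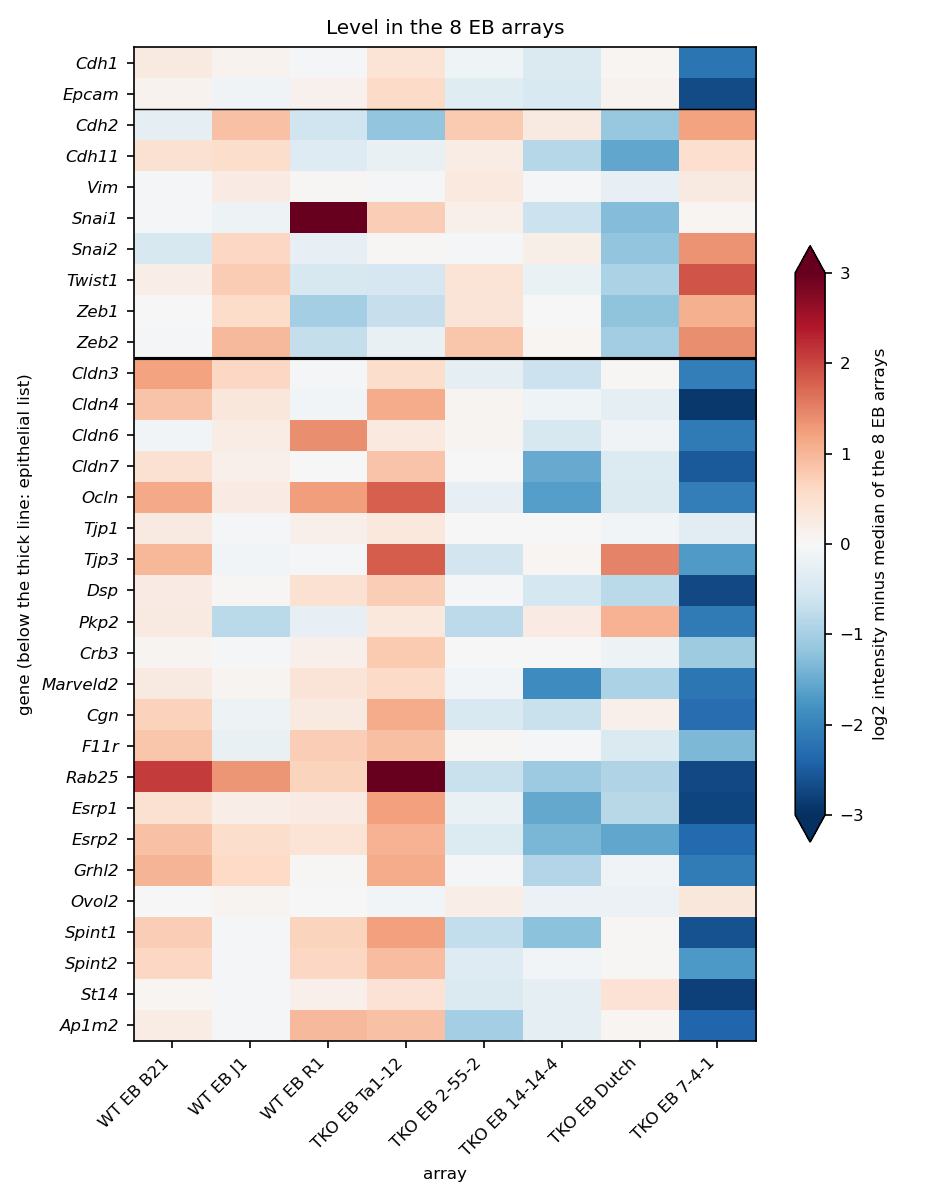
Log2 intensity of the 10 genes and of 22 epithelial genes on the 8 EB arrays, minus the median of the 8 arrays for each gene; red is higher, blue lower, and colours end at 3 on either side. The column of TKO EB 7-4-1 is lowest for Cdh1, Epcam and 21 of the 22 epithelial genes and highest for 5 of the 8 genes that rose on differentiation.

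From ESC to EB few genes of the epithelial list were called. Of its 22 genes tested, 1 rose and 0 fell in each genotype, where 26.5% and 21% of all genes rose, and its median change was 0.37 in WT and -0.05 in TKO, with single values in WT from -1.27 (Tjp3) to 1.82 (Esrp2). The riser was Esrp2 in WT (1.82 ± 0.62, limma adjusted p = 0.0316), which had 0.54 ± 0.56 in TKO, and the desmosome gene Dsp in TKO (2.46 ± 0.73, adjusted p = 0.0192), which had 1.46 ± 0.81 in WT. The junction genes F11r (0.92 ± 0.44), Cldn3 (1.34 ± 0.64) and Ocln (1.46 ± 0.76) did not pass in WT. Between genotypes 0 of the 22 were called, and the median of TKO against WT was -0.58 in ESC and -0.92 in EB, where that of all genes was -0.02 and -0.10. In ESC all 22 fitted differences were below 0, a count that rests on 3 arrays per genotype and not on 22 separate results. WT ESC J1 was highest of the 6 ESC arrays for 5 of these genes. WT ESC R1 was highest of the 6 ESC arrays for 17 of the 22 genes and also for 6 of the 8 genes that rose, where it was highest for 23.6% of all genes tested. The same array was lowest for 7 of 8 pluripotency markers (87.5%, against 18.9% of all genes) and highest for 12 of 14 mesenchymal structural genes. Its part in the values of WT ESC was not tested for the lists.

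Of 6 catenins, which link cadherins to actin, 1 rose in each genotype, where 26.5% and 21% of all genes rose, a share near the background. It was Ctnnb1, by 0.27 ± 0.07 in WT (limma adjusted p = 0.0109) and 0.22 ± 0.07 in TKO (adjusted p = 0.0229). Ctnnd1, which binds the juxtamembrane part of cadherins, had 0.61 ± 0.26 (adjusted p = 0.0702) and Jup, plakoglobin, 0.71 ± 0.49 (adjusted p = 0.249) in WT. Ctnnd2 pointed down, with -0.73 ± 0.36 in WT (limma adjusted p = 0.112) and -0.37 ± 0.32 in TKO, and did not pass. The median of the list was 0.28 in WT and 0.14 in TKO.

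Among 12 other cadherins, 10 were tested, and 4 rose in WT and 2 in TKO, with none falling and medians of 1.34 and 0.85. Over all genes 26.5% rose in WT and 21% in TKO, so the count in TKO lies at the background. Cdh6, a cadherin of the kidney and neural crest, rose by 3.11 ± 0.52 in WT and 1.84 ± 0.47 in TKO. Cdh13, which is anchored by a lipid, rose by 2.92 ± 1.08 and 2.85 ± 0.96, and the epithelial P-cadherin, Cdh3, by 0.72 ± 0.21 in WT. For Cdh13 the stages overlapped in TKO, with 26.5 in TKO EB 14-14-4 and 35.8 in TKO ESC Ta1-12. In WT line R1, Cdh13 was 150 in ESC and 189 in EB. Cdh5, the cadherin of endothelial cells and also one of the endothelial markers, rose by 5.15 ± 1.10 in WT (limma adjusted p = 0.00304) and had 2.55 ± 0.98 in TKO (adjusted p = 0.0584). Its intensity was 768, 774 and 2459 in WT EB and 3120 in TKO EB Ta1-12, but 77.1 to 140 in the other 4 TKO EB. The difference between the changes was not called (-2.59 ± 1.47, adjusted p = 0.975).

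Of 13 other transcription factors of mesenchyme and neural crest, 6 rose and 1 fell in WT, and 9 rose and 1 fell in TKO (medians 1.43 and 2.38), where 26.5% of all genes rose and 17.4% fell in WT and 21% and 15% in TKO. Foxc1 rose by 3.98 ± 0.62 in WT and 3.82 ± 0.56 in TKO, Sox9, a factor of cartilage and neural crest, by 5.18 ± 0.87 and 4.67 ± 0.78, and Twist2, the relative of Twist1, by 2.85 ± 0.71 and 3.63 ± 0.64. Tcf12, an E protein that pairs with Twist factors, rose by 2.22 ± 0.35 and 2.49 ± 0.31. The gene that fell was the third Snail family member, Snai3, by 2.07 ± 0.36 in WT (limma adjusted p = 9.76e-04) and 1.91 ± 0.32 in TKO (adjusted p = 8.46e-04). Snai3 was at 147 to 266 in ESC and at 27.1 to 106 in EB, opposite to Snai1 and Snai2.

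The TGF-beta pathway, a known inducer of the transition, rose in most of its genes. Of 10 genes, 8 rose and 0 fell in WT and 7 rose and 0 fell in TKO (medians 1.64 and 1.80), against 26.5% and 21% of all genes that rose. The receptor Tgfbr2 rose by 5.58 ± 0.70 and 5.01 ± 0.63, the co-receptor Tgfbr3 by 4.75 ± 0.68 and 5.47 ± 0.61, the ligand Tgfb3 by 5.04 ± 0.66 and 4.22 ± 0.59, and the signal transducer Smad3 by 1.75 ± 0.25 and 1.84 ± 0.22. Tgfbr2 was 466 in TKO EB Dutch and 2929 to 6179 on the other EB arrays. The ligand Tgfb1 (0.63 ± 0.36, adjusted p = 0.164) and the inhibitor Smad7 (-0.52 ± 0.28, adjusted p = 0.149) did not pass in WT.

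Structural genes of mesenchymal cells moved with Vim. Of 14 genes, 11 rose in WT and 12 in TKO, with none falling and medians of 2.09 and 2.68, where 26.5% and 21% of all genes rose. The matrix protein gene Tnc rose by 6.82 ± 0.54 in WT and 6.07 ± 0.49 in TKO, the gelatinase Mmp2 by 2.88 ± 0.25 and 2.72 ± 0.22, and the integrin genes Itgb1 and Itgav by 2.01 ± 0.21 and 2.12 ± 0.27 in WT and by 1.75 ± 0.19 and 1.76 ± 0.24 in TKO. On the array TKO EB 7-4-1, which was highest of the EB arrays for 5 of the 8 risers, these structural genes were highest in 0 of 14 cases and lowest in 3, where it was highest for 17.3% and lowest for 14.8% of all genes. Fibronectin, Fn1, rose less, by 0.94 ± 0.24 and 0.66 ± 0.22. Of the genes of these 6 lists, 0 were called in the difference between the changes. All adjusted p in these lists were 0.975 or above in limma, with many ties. Those with the smallest unadjusted p per list were Esrp2 (-1.28 ± 0.83) and Ovol2 (0.39 ± 0.37), Jup (-1.06 ± 0.66) and Ctnna2 (0.79 ± 0.72), and Cdh6 (-1.28 ± 0.70) and Cdh5. In the other 3 lists they were Msx2 (1.37 ± 0.83) and Gsc (0.53 ± 0.46), Tgfb2 (1.63 ± 1.21) and Tgfb3 (-0.82 ± 0.89), and Cald1 (0.84 ± 0.47) and S100a4 (-2.11 ± 1.21).

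**Figure D4:**
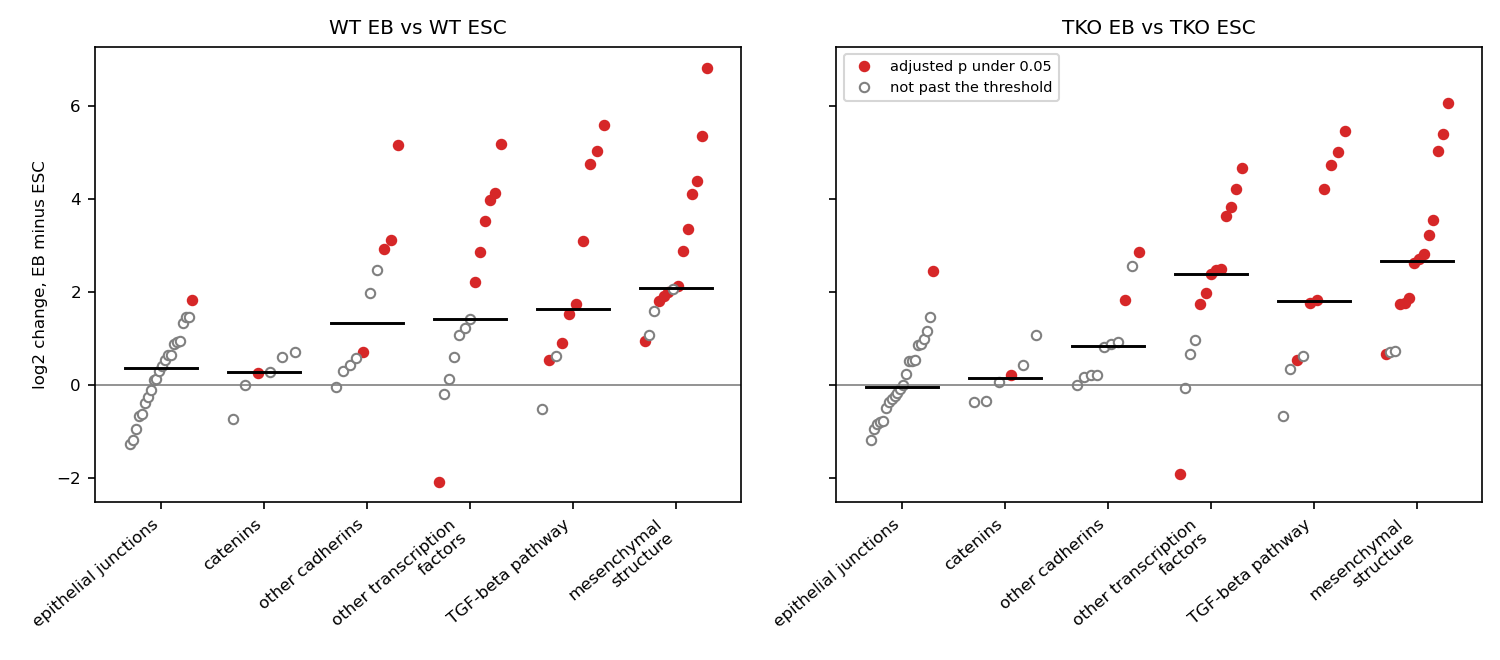
Log2 change from ESC to EB of each tested gene in 6 lists, in WT (left) and TKO (right); filled points passed an adjusted p of 0.05 in limma and bars are medians. The epithelial list and the catenins lie around 0 (medians 0.37 and 0.28 in WT), and the mesenchymal structural genes have medians of 2.09 and 2.68.

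The genes most like each of the 10 in their pattern over the 14 arrays were found by Pearson r of log2 values, given as a description. ESC and EB arrays fall apart for the 8 genes that rose, so any gene high in EB alone reaches a high r with them. Cdh1 and Epcam were most like each other (r = 0.96), followed by Grb7 for Cdh1 (r = 0.93) and the epithelial protease gene St14 for Epcam (r = 0.95). For Cdh11 these were the matrix genes Postn and Lum (r = 0.998 and 0.997), for Vim Lgals1 and Acta2 (r = 0.99 and 0.98), and for Twist1 Zfhx4 and Zeb2 (r = 0.99 and 0.98). Zeb1 was most like 6820431F20Rik and Sfrp1 (both r = 0.98), Zeb2 like Fbn2 and Pcdh18 (both r = 0.99), Cdh2 like Marcks and Fzd2 (both r = 0.98), Snai1 like Msl3 and Cers6 (both r = 0.98), and Snai2 like Pja2 and Sun2 (both r = 0.99).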

How the data were processed

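Per the labels' protocols, Trizol RNA was biotin-labelled and hybridised to Affymetrix arrays. The authors deposited 1 linear intensity per probe set and array, from 0.596 to 25702, with background correction and scaling not given in the sources used here. Between arrays, the highest and lowest array medians lay 0.374 apart in log2, and arrays were not centred. Lower deposited intensities were set to 32, and log2 was taken. Of 45101 probe sets, 34958 had 1 symbol in the platform annotation, 932 several and 9211 none; 34754 matched a RefSeq gene of GRCm38.p6 by Entrez identifier and 0 symbols changed. A gene was represented by its brightest probe set on average. Tests covered 14360 genes, all 10 members included, whose signal exceeded the 40th percentile of 3 or more arrays.

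The 14 arrays entered 1 fit of group means in limma 3.58.1 under R 4.3.3 (eBayes with trend, Benjamini-Hochberg adjustment over all genes per comparison, threshold 0.05). Groups came from sample titles. Every adjusted p is from limma, and ± is its standard error. The spread is shared by all groups, and the number of arrays limits the precision. The procedure was tested on simulated data with the spread capped and low starting levels raised, an easier setting than these data for noisy or dim genes. The members and gene lists were chosen with earlier results of these data known. All members are named; of each list, those with the smallest adjusted p in WT and in the difference of changes (ties by unadjusted p), and Tjp3, Cldn4, Esrp1, Grhl2, Dsp in TKO, Twist2, Fn1, Tgfb1 and Smad7 chosen after their values were seen. Marker lists of endothelium, cardiac muscle and macrophages had summed intensities of 649 to 2017, 408 to 1124 and 406 to 653 in ESC and 958 to 5461, 1219 to 58447 and 1199 to 18276 in EB. Alternatives covered the floor, normalization, filter, probe set rule, trend, samples, line block and each array left out. The series text calls arrays biological replicates. Lines measured at both stages pair arrays; their deviations from group means correlated at -0.0768 to 0.197.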

Additional observations from a re-analysis of the deposited data

How the results depend on the processing

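Of 1370 values of the 10 genes under alternative settings, 1369 kept their side of the threshold; the exception was Snai1 in TKO EB against TKO ESC without line Ta1-12, given above. The replicate block by line (12 arrays) changed no call of the 10 genes; it gave 3216 called genes in place of 5166 for TKO EB against TKO ESC, where leaving out line Ta1-12 gave 3105. In the difference of changes 1 gene was called with no filter and 5 without line Ta1-12, where 0 were called with the settings of the report. For TKO ESC against WT ESC, 1 was called with a floor of 64 and 2 with no filter. For TKO EB against WT EB, 8 were called with a floor of 64 and 1105 without line Ta1-12. Leaving out 1 array gave 4643 to 6816 genes (6301 with all) in WT EB against WT ESC, 3590 to 6266 in TKO EB against TKO ESC, 0 to 26 in the difference of changes (26 without TKO EB Ta1-12), 0 to 5 between ESC (5 without WT ESC B21) and 0 to 1431 between EB (1431 without TKO EB Ta1-12). Quantile normalization split the calls in WT EB against WT ESC into 3071 higher and 3485 lower (3801 and 2500 as deposited). It moved the median change of all genes from 0.13 to -0.07. Without this normalization, the median of all genes was 0.13 in WT and 0.09 in TKO. With these subtracted, the 10 genes as deposited had a median of 2.81 in WT and 2.82 in TKO. Values at the floor have no order.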
